A study of Mus musculus with 36 samples.

Results

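The genes of cholesterol and fatty acid synthesis were followed through the differentiation of Xmas mouse embryonic stem cells (mESCs). The set was given as 31 names from these pathways, chosen with earlier results of these data known. Of the 25965 genes measured 30 belong to it, because Msmo1 stands in the table under its older symbol Sc4mol. Of the 30, 18 make or move sterols, 8 make fatty acids and 4 regulate both branches. All 30 reached 1 RPM (a read count scaled to the reads of its library) in at least 4 libraries, as did 14612 genes in all.

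Xmas mESCs are female C57/Bl6 cells whose X chromosomes are told apart by reporters at Hprt, GFP on one and mCherry on the other. Per the study, the libraries came from lines of such cells, and no label says whether the cells of each library kept both reporters. Expression was measured in the lines X14 and X18, each with a library named double and a library named single, on 9 days. Day 0 cells were kept in 2i, and from then on they were weaned in steps into DME HiHi, a serum medium. The words double and single are used as names, since no label defines them, and a line with its label is called a culture below, although no label says whether the cultures were kept apart. Each day thus has 4 libraries, with replicate 1 from X14 double, replicate 2 from X14 single, replicate 3 from X18 double and replicate 4 from X18 single.

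Cholesterol is built from acetyl-CoA through the mevalonate pathway, which ends in farnesyl diphosphate, followed by squalene, lanosterol and a chain of late steps. Fatty acids are built from the same acetyl-CoA by carboxylation, elongation and desaturation, with NADPH as the reductant. Most of these enzymes are transcribed under the SREBP factors, which SCAP escorts to the Golgi for activation when sterols are low and which INSIG proteins hold back when sterols are plentiful.

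The shallowest library held 612740 reads in genes and the deepest 2445826, around a median of 1297944. On day 0 the X14 libraries ran against their names. The median of 569 X-linked genes, double minus single on the log2 scale, was -1.05 in X14 and 0.72 in X18 on day 0, but 0.72 and 0.69 over days 1 to 8. These libraries are therefore called by their labels only, the labels were compared on days 1 to 8, and comparisons with day 0 are given with and without them. The library labelled X14 double on day 5 was the shallowest and also read low for long genes, by -0.33 on the log2 scale per doubling of exon length, as did X18 double (-0.43) and X18 single (-0.29) on day 0 and X18 single on day 1 (-0.31). The naive pluripotency markers (7 genes) summed to between 3961 and 5024 RPM in the day 0 libraries.

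Promoter sequences were taken from RefSeq (GRCm38.p6, the assembly of mm10) for 24 of the 30 members, in 31 windows from 250 bases before to 50 bases after a start site. The stretch before the start of Hmgcs1 is shown because this enzyme, which makes HMG-CoA for the mevalonate pathway, differed most among the sterol genes between double and single. It lies at chr13:119690101-119690350 on the plus strand, and capitals mark the sterol element TCACNCCAC, known from genes under SREBP, and the letters CCAAT, known as the binding site of NF-Y, on either strand.

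Hmgcs1: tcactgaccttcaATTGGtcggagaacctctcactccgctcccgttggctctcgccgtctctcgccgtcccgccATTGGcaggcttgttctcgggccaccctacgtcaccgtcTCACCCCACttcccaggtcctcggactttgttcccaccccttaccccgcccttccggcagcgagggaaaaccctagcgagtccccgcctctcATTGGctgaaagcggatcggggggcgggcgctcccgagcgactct

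Hmgcs1 was the only member with the sterol element in its window, at -137 from the start, and 408 of all 32851 promoter windows (1.24%) hold these letters. The CCAAT letters were present in 21 of the 31 member windows (67.7%) and in 37.4% of all windows. The E-box CACGTG was present in 7 member windows (22.6%), from 6 genes, and in 7.15% of all windows. Overlapping windows of Scap share the same E-box. Of the 14 sterol genes with a window 13 hold the CCAAT letters, among them genes not called between the labels, such as Cyp51 and Idi1. Acat2, which was lower in double, has a window without them, and Fdps, Sqle and Stard4, also lower, have no window. For 6 further sterol genes that were lower in double than in single, the surroundings of the CCAAT letters nearest to a start site are shown, with these letters in capitals and Sc4mol under its RefSeq name Msmo1. The windows lie at chr5:114444235-114444279 (plus strand, Mvk), chr7:143830145-143830189 (plus, Dhcr7), chr8:64733609-64733653 (minus, Msmo1), chr8:122443425-122443469 (minus, Mvd), chr10:76531523-76531567 (plus, Lss) and chr19:6067873-6067917 (minus, Tm7sf2).

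Mvk: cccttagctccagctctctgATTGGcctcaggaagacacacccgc
Dhcr7: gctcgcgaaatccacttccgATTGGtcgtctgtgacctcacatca
Msmo1: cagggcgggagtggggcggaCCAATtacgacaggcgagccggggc
Mvd: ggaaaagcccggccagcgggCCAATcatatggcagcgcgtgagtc
Lss: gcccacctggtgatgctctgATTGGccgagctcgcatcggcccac
Tm7sf2: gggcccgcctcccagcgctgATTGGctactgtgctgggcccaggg

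The sterol genes stood highest in the middle of the course and the fatty acid genes lowest at its end. In each library the level of a branch was taken as the median over its genes of the log2 value minus that gene's mean over the 36 libraries. For the 18 sterol genes day 1 gave -0.26 ± 0.30 and day 3 gave -0.16 ± 0.12, followed by 0.22 ± 0.07 on day 4, 0.35 ± 0.18 on day 6 and finally -0.09 ± 0.53 on day 8 (mean ± SD, n = 4). The branch was thus low on days 1 to 3 and high on days 4 to 6, and the spread between libraries was widest on day 8. By the mean of 4 libraries 10 of the 18 sterol genes were highest on day 5 or 6 (55.6%), against 22.6% of all genes tested. The 8 fatty acid genes stood at 0.43 ± 0.21 on day 2, 0.15 ± 0.14 on day 4 and -0.25 ± 0.45 on day 5. They were back at 0.21 ± 0.14 on day 6, followed by -0.28 ± 0.42 on day 7 and -0.56 ± 0.52 on day 8. On day 8 X14 single was still at 0.15. By the mean of 4 libraries 5 of the 8 were lowest on day 8 (62.5%), against 12.2% of all genes. All genes tested stood at 0.03 on day 2 and 0.12 on day 8. Lower levels in bulk RNA can come from fewer cells that express a gene or from less RNA in each cell, and these cannot be told apart here.

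**Figure D1:**
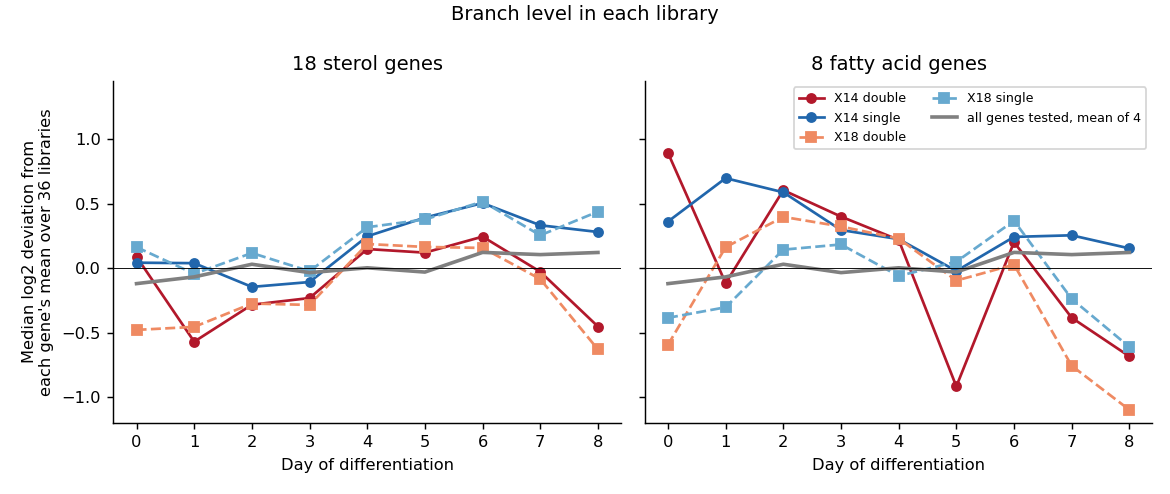
Branch level in each of the 36 libraries by day of differentiation, as the median log2 deviation from each gene's mean over all libraries, for 18 sterol genes (left) and 8 fatty acid genes (right), with circles and solid lines for X14, squares and dashed lines for X18, red shades for double and blue shades for single. The grey line is the mean of 4 libraries for all genes tested, and on day 8 the sterol genes stand at -0.54 on average in double and at 0.36 in single.

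The comparison of day 4 with day 0 asks what changed as cells left the naive state. In limma, 5 of the 30 members were higher on day 4 at an adjusted p under 0.05, while 16.3% of all genes tested were. No member was lower (2 at an unadjusted p under 0.05, and 0 by voom on recovered reads), against 9.42% of all genes. The 5 were Mvd (0.91 on the log2 scale) and Fdps (0.94), which complete isoprenoid synthesis, Sqle (0.66), the squalene epoxidase, Lss, and Acaca, which makes malonyl-CoA. Changes are to be read against the median of all genes, which was 0.12. The median over the members was 0.13.

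Lss, the lanosterol synthase, stood at 6.86, 4.85, 0.858 and 4.99 RPKM (the same scaled count per kilobase of exon) in replicates 1 to 4 of day 0, and at 9.53, 12.8, 7.73 and 9.82 RPKM on day 4. Every day 4 library was above every day 0 library. The log2 difference was 1.51 (SE 0.42, limma adjusted p = 0.0079). Without replicate 3, whose day 0 library held 9 reads of Lss, it was 0.95 (adjusted p = 0.093). With only the 2 days compared Lss did not pass either (limma adjusted p = 0.096). Acaca stood at 5.61, 2.69, 0.912 and 1.60 RPKM on day 0 and at 4.90, 7.46, 4.83 and 5.08 RPKM on day 4, so the library labelled X14 double on day 0 overlapped the day 4 libraries. The log2 difference of Acaca was 1.34 (SE 0.48, limma adjusted p = 0.036), and it did not pass the threshold without replicate 2, 3 or 4 (adjusted p = 0.13, 0.29 and 0.20). It was also lost with no filter (adjusted p = 0.054), after quantile normalization (0.064) and with only the 2 days compared (0.11).

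With a minimum log2 difference of 1, Lss and Acaca remained, 2 of 30 members against 18.6% of all genes. Without replicate 3, 0 members were called higher. Without the X14 libraries of day 0 the count rose to 8, as Fasn (1.36, the fatty acid synthase), Srebf2 (1.44, which encodes the sterol SREBP) and Scap (1.39) passed the threshold, and Sc4mol (-0.92, a C4 demethylation enzyme) was then lower. Day 0 then rested on the X18 libraries, which read low for long genes. Their trends were -0.43 (double) and -0.29 (single) per doubling of exon length, and the part of length in these calls was not tested. With the replicate block Srebf2 passed as well (0.76, limma adjusted p = 0.03).

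Between day 4 and day 8 the members fell more often than they rose. In limma, 8 of 30 members were lower on day 8 (13.4% of all genes were) and 1 was higher (19.3% of all genes). The members lower were Idi1, Fdps, Sqle and Dhcr7 of the sterol branch, Acly, Fasn and Elovl6 of the fatty acid branch, and Insig1. The member higher was Sc5d, a late desaturase of the sterol chain (0.98, SE 0.25, adjusted p = 0.0031). The median over the members was -0.38, over the sterol genes -0.25 and over the fatty acid genes -0.96, while that of all genes was 0.10.

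Elovl6, which elongates palmitate, stood at 28.7, 28.7, 26.0 and 22.6 RPKM in replicates 1 to 4 of day 4 and at 8.64, 18.7, 6.43 and 21.0 RPKM on day 8. All 4 libraries of day 8 were below those of day 4, and the cultures named double fell furthest. The log2 difference was -1.12 (SE 0.26, limma adjusted p = 0.0010). Acly, which releases acetyl-CoA from citrate, went from 118, 126, 120 and 117 RPKM to 56.2, 87.9, 38.2 and 50.5 RPKM, again without overlap, a log2 difference of -1.11 (SE 0.25, limma adjusted p = 6.6e-04). Sc5d, Acly and Elovl6 were the 3 of these 9 calls that held when each replicate in turn was left out.

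Fasn stood at 49.4, 68.1, 39.6 and 38.3 RPKM on day 4 and at 27.7, 43.8, 10.3 and 13.2 RPKM on day 8. X14 single stayed within the range of day 4, and the log2 difference was -1.24 (SE 0.45, limma adjusted p = 0.034). The call was lost without replicate 3 or 4 (adjusted p = 0.20 and 0.12). Fdps, the farnesyl diphosphate synthase, went from 74.7, 60.5, 71.7 and 61.9 RPKM to 14.6, 45.4, 23.1 and 71.9 RPKM. Both double libraries of day 8 were below every other library of these days, while X18 single stood above its own day 4 level. Its log2 difference was -1.05 (SE 0.30, limma adjusted p = 0.0070), and it was lost without replicate 1 or 3 (adjusted p = 0.12 and 0.10).

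Idi1, the isopentenyl diphosphate isomerase, was counted by few reads, 22, 25, 25 and 18 on day 4 and 2, 22, 4 and 9 on day 8. These reads correspond to 4.22, 4.62, 4.02 and 2.88 RPKM on day 4 and to 0.296, 3.05, 0.994 and 3.06 RPKM on day 8. Only the double libraries left the range of day 4. The log2 difference was -1.59 (SE 0.56, limma adjusted p = 0.028), and it was -0.84 without replicate 1 (adjusted p = 0.33) and -1.45 without replicate 3 (adjusted p = 0.13).

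The double cultures had the lower medians in this change, a difference between cultures for which no test was run. The median over the sterol genes, day 8 minus day 4, was -0.57 in X14 double and -0.80 in X18 double, against 0.17 in X14 single and 0.06 in X18 single. Over the fatty acid genes it was -0.95 and -1.36 in the double cultures and -0.32 and -0.38 in the single cultures. The medians of all genes lay between 0.03 and 0.19. Among the members 10 were lower on day 8 in all 4 cultures (33.3%, against 21.4% of all genes), namely Ggps1, Sqle, Lss, Dhcr7, Acly, Acaca, Fasn, Scd1, Elovl6 and Insig1. Hmgcs1 was higher on day 8 in all 4 (0.64, 0.90, 0.84 and 0.90 in replicates 1 to 4), with a difference of 0.82 that did not pass the threshold (limma adjusted p = 0.24, and 0.058 with the replicate block). With a minimum log2 difference of 1, 5 of the 30 members were called, against 24.7% of all genes. Leaving out replicate 3 left 2 members lower, and leaving out replicate 1 left 5. With the replicate block Acat2 (-0.62, adjusted p = 0.015), Sc4mol (-0.69, adjusted p = 0.033) and Scd1 (-0.86, adjusted p = 0.039) were lower as well.

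**Figure D2:**
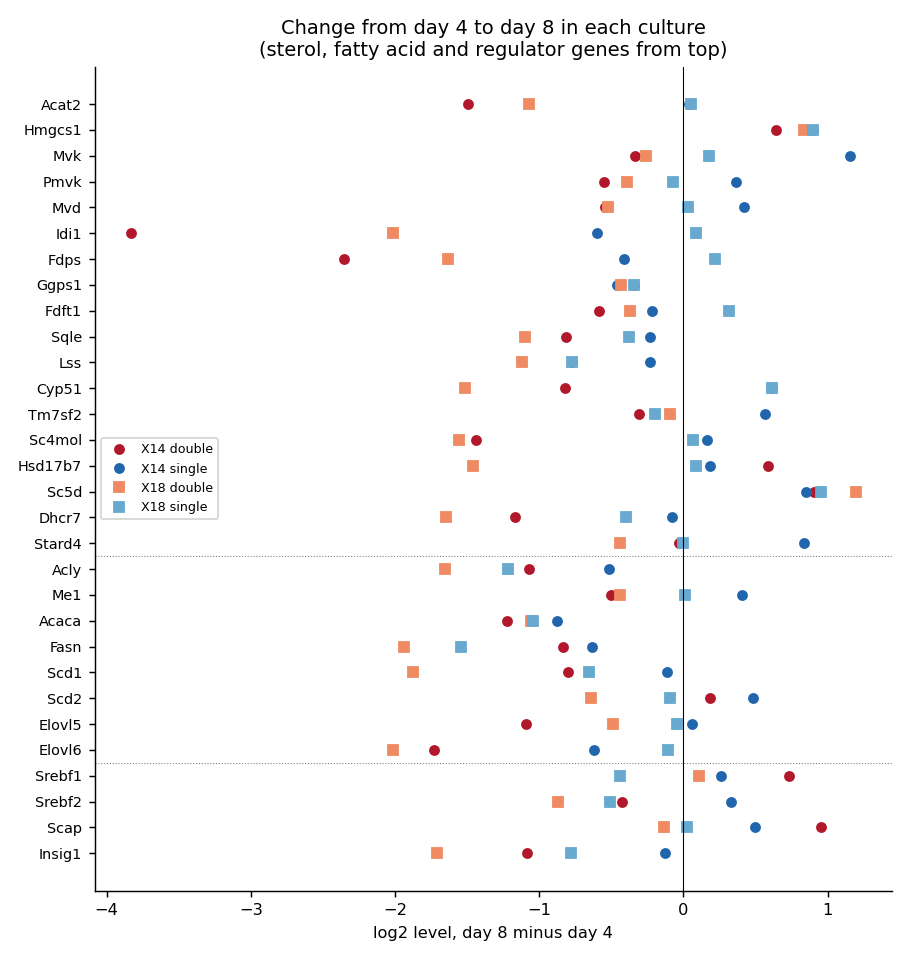
Change of each of the 30 members from day 4 to day 8 on the log2 scale, with 1 point for each culture (red shades double, blue shades single, circles X14, squares X18) and dotted lines between the sterol, fatty acid and regulator genes. Hmgcs1 and Sc5d lie above 0 in all 4 cultures, and most other sterol genes lie further left in the double cultures than in the single cultures.

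Against day 0, 8 of 30 members were lower on day 8 in limma (16.5% of all genes) and 3 were higher (29.2% of all genes). The median over the members was -0.11, against 0.23 over all genes. That second median moved to 0.02 with 75th percentile scaling and to -0.09 with quantile normalization. Rescaling shifts the members too, and 11 and 10 members were then lower. The members lower were Idi1 (-1.82), Ggps1 (-0.63, which makes geranylgeranyl diphosphate), Cyp51 (-0.67, the lanosterol demethylase), Sc4mol, Acly (-0.99), Scd1 (-0.95, a desaturase), Elovl6 and Insig1. The members higher were Mvd (0.75), Sc5d (0.76) and Scap (1.09), and after either rescaling only 1 member was called higher. With a minimum log2 difference of 1, 5 of 30 members were called, against 35.0% of all genes.

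Insig1, which retains SREBP in the endoplasmic reticulum, stood at 71.4, 89.6, 69.0 and 68.0 RPKM on day 0 and at 26.0, 34.2, 21.6 and 28.7 RPKM on day 8. The days did not overlap, and the log2 difference was -1.44 (SE 0.23, limma adjusted p = 4.4e-06). Elovl6 went from 56.9, 38.4, 28.3 and 37.7 RPKM to the day 8 values given above, also without overlap, by -1.69 (SE 0.26, limma adjusted p = 2.6e-06). These were the only 2 of the 11 calls that held under every alternative run.

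Sc4mol stood at 27.8, 35.4, 56.0 and 56.4 RPKM on day 0 and at 11.2, 29.7, 10.8 and 31.95 RPKM on day 8. Both single libraries of day 8 were above the lowest library of day 0, and the log2 difference of -1.19 (SE 0.29, limma adjusted p = 9.4e-04) became -0.80 without replicate 3 (adjusted p = 0.068). Idi1 had stood at 3.04, 3.04, 5.57 and 8.28 RPKM on day 0, and its difference of -1.82 (SE 0.56, limma adjusted p = 0.0086) was lost without replicate 1 or 3 (adjusted p = 0.075 and 0.076). Scap, the escort of SREBP, went from 6.85, 7.21, 2.37 and 3.61 RPKM to 17.8, 11.4, 8.19 and 5.26 RPKM, higher in each culture although X18 single on day 8 was below both X14 libraries of day 0. Its difference was 1.09 (SE 0.35, limma adjusted p = 0.010), and it was lost without replicate 3 (0.86, adjusted p = 0.11) and after quantile normalization (0.70, adjusted p = 0.053).

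Leaving out the X14 libraries of day 0 removed the calls of Acly (-0.48, adjusted p = 0.13) and Scd1 (-0.24, adjusted p = 0.63), and Lss (1.52) and Srebf2 (1.07) were then higher. Day 0 then rested on the X18 libraries, which read low for long genes, and the part of length in these changes was not tested. Without replicate 3, 3 members were lower and 1 was higher. With the replicate block Hmgcs1 was higher (0.95, adjusted p = 0.021), and Acat2 (-0.63, adjusted p = 0.0095) and Dhcr7 (-0.60, adjusted p = 0.027) were lower.

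Other markers moved with these days. On day 8 the 7 naive markers summed to between 364 and 723 RPM, against 3961 to 5024 RPM on day 0, and the 4 primed markers to between 244 and 645 RPM, against 1647 to 3400 RPM on day 4. The 9 endoderm markers summed to 28.7 to 75.8 RPM on day 8 and at most 10.6 RPM on day 0, with Afp, Ttr and Apoa1 without a read in the day 8 libraries. On day 8 Dab2 had a mean of 30.1 RPM and Foxa2 of 9.51, while Gata4 went from 2.95 on day 0 to 0.86. The 5 mesenchyme markers summed to 60.2 to 97.2 RPM on day 8 and at most 10.7 RPM on day 0. Their day 8 means were 34.4 RPM for Col1a2, 24.9 for Acta2, 12.9 for Col1a1 and 0.62 for Col3a1. Thy1 went the other way after day 4, from a mean of 21.9 to 1.19 RPM. The 5 adipocyte markers summed to 22.2 to 38.4 RPM on day 0, between 5.63 and 21.3 RPM on day 4, and between 27.4 and 102.8 RPM on day 8. Of these Pparg had no read on days 0 and 4 and a mean of 31.6 RPM on day 8, where limma called it higher than on either day, Lpl was not called on day 8 against either day, and Adipoq, Plin1 and Fabp4 had no read on these days. The part of these markers in the changes of the members was not tested.

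On days 1 to 8, 11 of the 18 sterol genes were lower in the libraries named double than in those named single at a limma adjusted p under 0.05, and 0 were higher (0 also at an unadjusted p under 0.05 and by voom). The fit held day, line and label over 32 libraries, and all 18 sterol genes had an estimate below 0, with a median of -0.42. Each label stands for 2 cultures followed over days, so its 16 libraries are not 16 independent samples. Of the 30 members 16 were lower, against 12.8% of all genes tested, and 3 were higher (Me1, Scap and Insig1), against 9.76% of all genes. The median was -0.39 over the members and -0.04 over all genes.

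Hmgcs1 (chr13:119690462-119708086 in the table, plus strand, mm10) ranged from 18.7 to 123 RPKM with a median of 49.9 in the 16 double libraries of days 1 to 8, and from 62.1 to 183 RPKM with a median of 123 in the 16 single libraries. The ranges overlapped over the course, but in each of the 16 comparisons within a line and day the double library was lower. Day 3 gave 21.9 RPKM in X14 double against 72.5 in X14 single, and 23.4 in X18 double against 66.5 in X18 single. The log2 difference was -1.196 (SE 0.10, limma adjusted p = 3.6e-10), with -1.24 in X14 and -1.15 in X18.

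Me1, the malic enzyme that supplies NADPH, went the other way. The gene (chr9:86581363-86695914, minus strand) ranged from 14.2 to 26.5 RPKM with a median of 19.3 in the 16 double libraries, and from 4.78 to 12.1 RPKM with a median of 7.97 in the 16 single libraries. The 2 groups did not overlap, and double was higher in 16 of 16 comparisons. The log2 difference was 1.30 (SE 0.12, limma adjusted p = 3.2e-09), with 1.32 in X14 and 1.29 in X18. Hmgcs1 and Me1 were the 2 of 30 members called with a log2 difference of at least 1, against 4.54% of all genes.

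**Figure D3:**
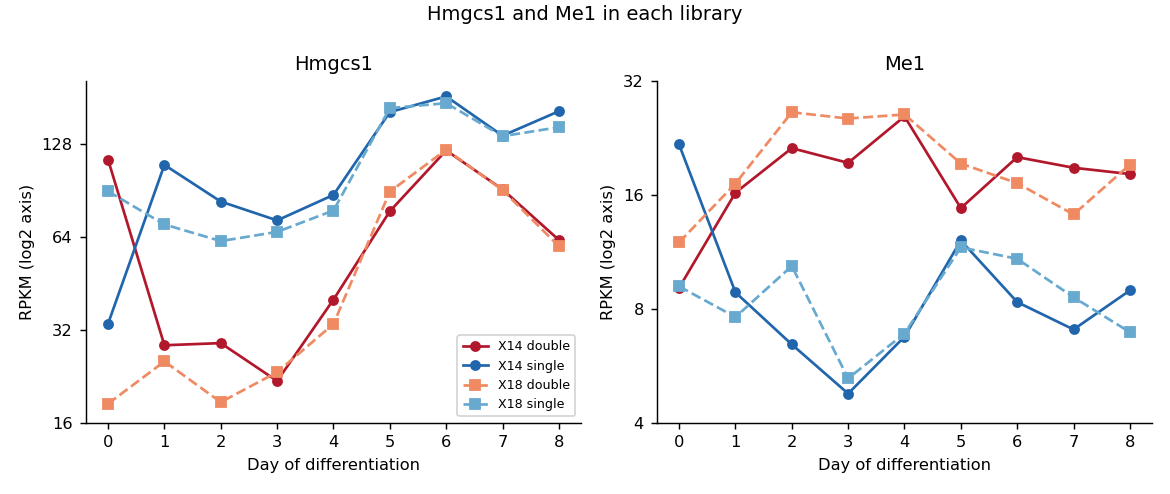
RPKM of Hmgcs1 (left) and Me1 (right) in each of the 36 libraries by day, on a log2 axis, with circles and solid lines for X14, squares and dashed lines for X18, red shades for double and blue shades for single. From day 1 on the single libraries lie above the double libraries of the same line for Hmgcs1 and below them for Me1, and on day 0 the X14 libraries have the opposite order.

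On day 0 the library labelled X14 double held 114 RPKM of Hmgcs1 and the library labelled X14 single 33.5, while X18 double held 18.4 and X18 single 90.0. For Me1 the day 0 values were 9.09 and 21.8 RPKM in X14 and 11.99 and 9.17 in X18. X14 thus had the opposite order to its own later days in both genes. Of the 30 members 22 had the opposite sign on day 0 in X14 (73.3%, against 67.3% of all genes), and 6 had it in X18 (20%, against 43% of all genes).

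Among the other steps of the mevalonate pathway, Acat2 (-0.49, adjusted p = 6.4e-04), which joins acetyl-CoA units, Mvk (-0.48), Mvd (-0.25, adjusted p = 0.041) and Fdps (-0.45) were lower in double. The call of Mvd held in 6 of 16 alternatives and was lost with no filter (adjusted p = 0.085), 75th percentile scaling (0.079), voom (0.084), day 0 included (0.061), either line alone and each replicate left out. Pmvk, the kinase between Mvk and Mvd, was at -0.30 (adjusted p = 0.099) and passed with line and day as a block (limma adjusted p = 0.049). Idi1 was at -0.67 (limma adjusted p = 0.065) and Ggps1 at -0.16 (adjusted p = 0.36). With culture as a correlated block Idi1 had an adjusted p of 0.033. That fit can hardly measure the spread between cultures, since each label stands for 2 cultures. Acat2 was lower in double in 14 of 16 comparisons within a line and day, and Mvd in 12 of 16.

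Of the squalene and lanosterol steps Sqle (-0.27, limma adjusted p = 0.0098) and Lss were lower. Fdft1, the squalene synthase, was at -0.16 (adjusted p = 0.10) and Cyp51 at -0.29 (adjusted p = 0.088). With culture as a correlated block Cyp51 had an adjusted p of 0.047, with the limit given for Idi1. Lss ranged from 2.22 to 10.9 RPKM (median 6.43) in double and from 4.40 to 15.4 RPKM (median 9.48) in single, and was lower in double in 16 of 16 comparisons. Its log2 difference was -0.60 (SE 0.11, limma adjusted p = 2.7e-04) and -0.44 without replicate 2 (adjusted p = 0.15). Fdft1 overlaps Ctsb and Mvd overlaps Gm20388 in the table, and the strand used in counting is not stated, so their reads may be shared with these genes.

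The late sterol steps Tm7sf2 (-0.54, adjusted p = 0.0030), Sc4mol (-0.39) and Dhcr7 (-0.44, adjusted p = 0.0020), the last enzyme before cholesterol, were lower in double. Hsd17b7 was at -0.40 (adjusted p = 0.14) and Sc5d at -0.03 (adjusted p = 0.89), with 8 of 16 comparisons on each side. Stard4, a carrier of cholesterol between membranes, ranged from 3.03 to 10.2 RPKM (median 6.85) in double and from 6.16 to 20.6 RPKM (median 9.35) in single, and was lower in double in 16 of 16 comparisons. Its log2 difference was -0.58 (SE 0.11, limma adjusted p = 3.5e-04).

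**Figure D4:**
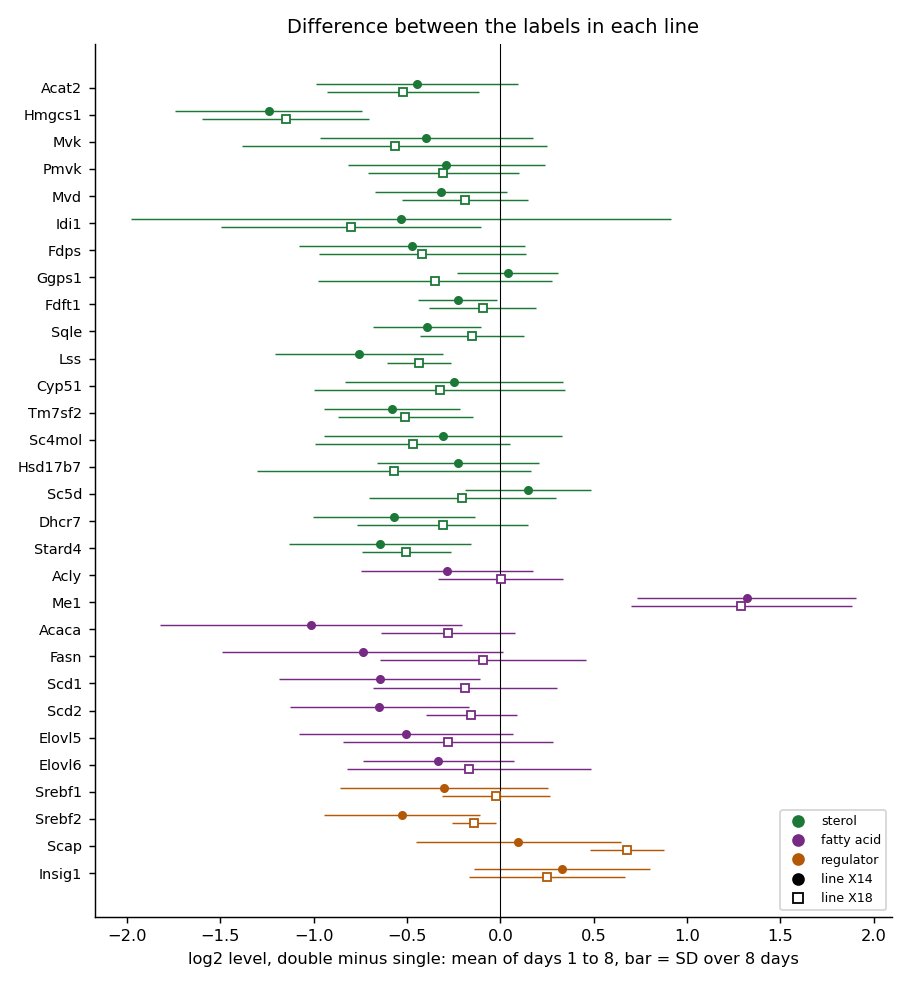
Difference of the log2 level, double minus single, for each of the 30 members in line X14 (filled circles) and line X18 (open squares), as the mean of days 1 to 8 with the SD over the 8 days, coloured by branch. Hmgcs1 lies near -1.2 and Me1 near 1.3 in both lines, and 16 of the 18 sterol genes lie below 0 in both.

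Of the fatty acid genes Acaca (-0.65, adjusted p = 0.0095), Scd1 (-0.42), Scd2 (-0.40) and Elovl5 (-0.39) were lower in double, and Acly (-0.14, adjusted p = 0.35), Fasn (-0.42, adjusted p = 0.12) and Elovl6 (-0.25, adjusted p = 0.12) did not pass the threshold. The estimates were larger in X14, and the difference between the lines was not tested. Acaca was at -1.02 in X14 and -0.28 in X18, Scd2 at -0.65 and -0.16, and Scd1 at -0.65 and -0.19. The X14 means include day 5, where the library labelled X14 double was the shallowest and read low for long genes. On that day the X14 differences were -2.83 for Acaca, -1.50 for Scd2 and -1.44 for Scd1. None of these 4 passed in X18 alone, where the adjusted p lay at 0.34 for Acaca, 0.44 for Scd1, 0.26 for Scd2 and 0.30 for Elovl5. Scd1 and Scd2 are close paralogs and may exchange reads.

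Among the regulators Srebf2 was lower in double (-0.34, limma adjusted p = 0.014), in 16 of 16 comparisons. It was at -0.53 in X14 and -0.14 in X18, where it did not pass alone (adjusted p = 0.19). The X14 differences of Srebf2 included -1.10 on day 1 and -1.045 on day 5, the day of the shallowest library. Srebf1, which overlaps Rai1 in the table, was at -0.16 (adjusted p = 0.36). Scap (0.39, adjusted p = 0.038) and Insig1 (0.29, adjusted p = 0.040) were higher. Scap rested on X18 (0.68), since X14 alone gave 0.10 (adjusted p = 0.81). Insig1 was lost in either line alone (adjusted p = 0.18 and 0.24) and after quantile normalization (adjusted p = 0.058).

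Leaving out a replicate leaves the comparison to the other line in effect, and then 3 to 11 members were lower and 1 or 2 higher. Hmgcs1, Stard4 and Me1 were the only 3 of the 19 calls that held in every case and under the other alternatives run, except that Stard4 is below the minimum log2 difference of 1. Both lines had a mean below 0 for 24 of the 30 members (80%), against 38.3% of all genes, and for 16 of the 18 sterol genes (88.9%). The naive markers Zfp42 (0.42), Esrrb (0.59), Klf4 (0.80) and Tfcp2l1 (0.83) were higher in double, 4 of the 7 in the list, against 9.76% of all genes. The primed markers Dnmt3b (-0.90) and Pou3f1 (-0.95) were lower, 2 of 4, against 12.8% of all genes. The naive list summed to 364 to 5721 RPM (median 1711) in double and 602 to 4954 RPM (median 1332) in single, and the primed list to 58.5 to 1713 RPM (median 401) and 76.5 to 3400 RPM (median 867). Of the 9 endoderm markers 5 were tested and all 5 had an estimate below 0 in double (-0.99 to -0.13), with Dab2 called lower, and the list summed to 0 to 33.99 RPM (median 3.36) in double and 1.08 to 82.2 RPM (median 10.6) in single, with Ttr without a read in either label. The adipocyte list summed to 2.83 to 102.8 RPM (median 18.3) in double and 8.64 to 34.98 RPM (median 18.1) in single. Its tested genes Pparg (0.60, limma adjusted p = 0.16) and Lpl (0.12, adjusted p = 0.79) did not pass, and Adipoq, Plin1 and Fabp4 had no read in either label. The mesenchyme list summed to 1.99 to 69.98 RPM (median 25.6) in double and 3.98 to 97.2 RPM (median 32.96) in single, with 0 of 4 tested genes called (1 at an unadjusted p under 0.05, Acta2 at -0.65). The part of these markers in the difference between the labels was not tested.

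The difference over the sterol genes was widest on day 8 in both lines. By day the median over the sterol genes, double minus single, was -0.38 in X14 and -0.39 in X18 on day 1. It lay at -0.08 and -0.18 on day 4, at -0.48 and -0.41 on day 6, then at -1.10 and -0.90 on day 8. On day 8, 17 of the 18 sterol genes were lower in double in both lines (94.4%), against 34.2% of all genes. The fatty acid genes lay at -0.88 in X14 and 0.36 in X18 on day 1 and at -0.71 and -0.37 on day 8. On days 2 and 3 both lines lay above 0, at 0.02 and 0.29 and then at 0.02 and 0.19, and from day 5 on both lay below 0. On each of days 6, 7 and 8, 7 of the 8 genes were lower in double in both lines, against 26.6%, 29.1% and 34.2% of all genes. These daily values rest on 1 library per line and label and carry no test.

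**Figure D5:**
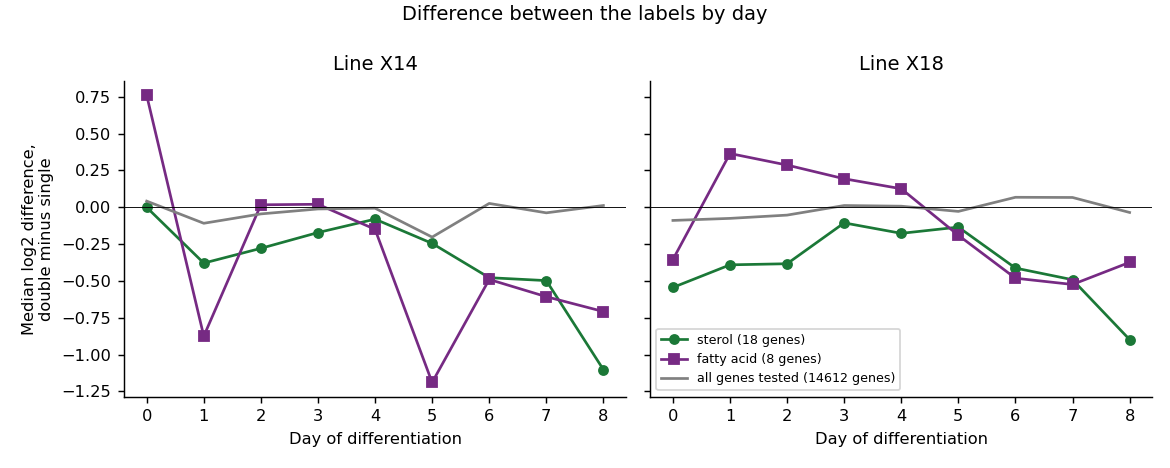
Median log2 difference, double minus single, on each day in line X14 (left) and line X18 (right), over 18 sterol genes (green circles), 8 fatty acid genes (purple squares) and all genes tested (grey). On day 8 the sterol genes stand at -1.10 in X14 and -0.90 in X18, and the day 5 value of the fatty acid genes in X14 (-1.19) includes the shallowest library.

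The change of the label difference from days 1 to 4 to days 5 to 8 was tested with an interaction term in limma. Of the 30 members 4 became lower in double relative to single, against 2.69% of all genes, and 1 became higher, against 3.22%. The 4 were Acat2 (-0.62, adjusted p = 0.023), Cyp51 (-0.87, adjusted p = 0.0044), Elovl5 (-0.95, adjusted p = 6.5e-04), which elongates polyunsaturated fatty acids, and Me1 (-0.71, adjusted p = 0.038). No member was called with a difference of at least 1 (0 of 30, with 15 at an unadjusted p under 0.05 whatever the size, against 4.07% of all genes called at that size). The median over the members was -0.35 and that of all genes 0.01.

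Cyp51 differed little between the labels on days 1 to 4 (0.15 in X14 and 0.14 in X18) and was lower in double on days 5 to 8 (-0.65 and -0.79). On day 8 it stood at 15.02 and 14.4 RPKM in the double libraries and at 37.4 and 46.6 RPKM in the single libraries. Elovl5 had the same form, with -0.03 and 0.19 early and -0.99 and -0.75 late. For Acat2 the values were -0.03 and -0.32 early and -0.86 and -0.73 late.

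For Hmgcs1 and Me1 the mean difference was nearer to 0 on days 5 to 8, from opposite sides. The difference of Hmgcs1 was -1.58 in X14 and -1.49 in X18 on days 1 to 4 and -0.90 and -0.82 on days 5 to 8 (change 0.67, SE 0.16, adjusted p = 0.0095). That of Me1 was 1.64 and 1.68 early and 0.999 and 0.90 late. By day, Hmgcs1 went from -1.13 in X14 and -1.22 in X18 on day 4 to -0.58 in both on day 7 and to -1.39 and -1.28 on day 8, so day 8 was farther from 0 than day 4. Me1 stood at 1.93 and 1.92 on day 4, at 0.28 and 0.74 on day 5 and at 1.02 and 1.47 on day 8. None of the 5 calls held when each replicate in turn was left out. Without the library labelled X14 double on day 5 the number lower was 7, as Fdps (-0.76), Sc4mol (-0.77) and Insig1 (-0.54) also passed.

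By the mean of 4 libraries Insig1 was highest on day 5, for which no test was run. It was at 158 RPKM in X14 double (the shallowest library), 87.6 in X14 single, 135 in X18 double and 78.3 in X18 single. These were above all libraries of days 4 and 6, where the means were 53.1 ± 13.8 and 39.1 ± 4.53 RPKM (SD, n = 4). The single libraries of day 5 overlapped day 0 (up to 89.6 RPKM) and day 1 (up to 92.5 RPKM). Srebf2 was at 90.9 to 97.3 RPKM in 3 of the 4 libraries of day 5 and at 47.2 in the library labelled X14 double, after 54.6 ± 3.19 RPKM on day 4. Hmgcs1 rose from 59.8 ± 27.0 RPKM on day 4 to 124 ± 47.3 on day 5 and 150.5 ± 32.4 on day 6, and its rise from day 4 to day 5 is seen in each culture in the plot of its levels.

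Outside the set, other genes of the same pathways were called in both directions, and their counts are given with the shares of all genes. Of 20 other sterol genes 18 were tested, and between double and single 3 were higher and 3 lower, with a median of 0.06. Of 26 other fatty acid genes 24 were tested, with 0 higher and 2 lower (Elovl7 and Tecr, named after their values were seen) and a median of -0.04. Between the labels 9.76% of all genes tested were higher and 12.8% lower. Between day 4 and day 8, 6 of the 18 other sterol genes were higher and 4 lower, and 4 of the 24 other fatty acid genes were higher and 8 lower. Of all genes tested 19.3% were higher and 13.4% lower between these days.

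Of the sterol enzymes on the X chromosome Nsdhl was at 0.32 between the labels (limma adjusted p = 0.095) and Ebp at 1.33 (SE 0.21, limma adjusted p = 2.7e-05). Ebp stood at 38.1 and 37.8 RPKM in the double libraries and 5.04 and 5.10 RPKM in the single libraries of day 4, and at 10.8 and 13.6 against 9.26 and 19.1 RPKM on day 8.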

How the data were processed

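Per the study, libraries were sequenced as 75 bp single-end reads, which were trimmed (trim_galore), mapped to mm10 and counted per gene in SeqMonk. The submitters' processing notes name TopHat2 2.0.12. The annotation version and the strand of counting are not given in the sources used here. The deposited values are on the log2 scale. The authors' table is named log CPM, but its steps scale with exon length, so they were read as log2 RPKM. A gene without reads was written as 0.9 read, and whole reads (within 0.02) were recovered for 100% of the genes and used for depth and RPM. This unit replaced the planned log2 RPM, and differences are the same on both scales.

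Genes at 1 RPM in at least 4 libraries were tested with limma 3.58.1 (lmFit, eBayes with trend, two-sided) in R 4.3.3, with Benjamini-Hochberg adjustment over 14612 genes and calls at an adjusted p under 0.05. Day contrasts used all 36 libraries with day as the factor, and label contrasts 32 libraries with day, line and label. RPKM are means ± SD of 4 libraries. P-values measure the spread between libraries, which may be technical, and libraries of one culture on different days are not independent. Their correlation was estimated at -0.03, but line and label, already in that fit, leave little of the spread between the 4 cultures to measure. The lowest chi-squared per gene between libraries of a day was 1.24, so none was counted as a repeat. Replicate numbers mark the same line and label on every day and so pair the days. Their deviations correlated at -0.17 to 0.30. The script was tested on simulated data.

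Members, lists, tests and alternatives were chosen with earlier results of these data known. Each member is named, with full values for those called with a log2 difference of at least 1, and of the other pathway genes values are given for Nsdhl and Ebp, while some others are not reported here. Alternatives were a minimum fold change, no filter, a mean of at least 10 RPM, 75th percentile and quantile scaling, voom, each replicate left out, a replicate block, culture as a correlated block, only the days compared, each line alone, day 0 included, and the X14 libraries of day 0 left out. For the labels, the replicate block was replaced by a block of line and day. Removing the trend on gene length and leaving out the library labelled X14 double on day 5 were added after the data had been seen.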

Additional observations from a re-analysis of the deposited data

Results flagged for a closer look

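In groups of 4 libraries, 14 of the 270 member and day groups had a library far from the other 3, by Dixon's ratio of the gap to the range on the log2 RPKM scale, and chance alone gives about 1 in 20 groups. The library labelled X14 double on day 5 was the low one in 5 of them, with Acly at 5.68, Acaca at -0.64, Fasn at 2.60, Scd1 at 4.33 and Srebf2 at 5.56. This library is the shallowest and reads low for long genes, and the part of depth and length in these values was not tested. X18 double was low on day 0 for Fdps (4.63) and Lss (-0.22), on day 6 for Fdft1 (5.39) and on day 2 for Sc5d (2.53). X18 single was low on day 6 for Ggps1 (3.02) and high on day 2 for Dhcr7 (4.92). X14 single was high on day 4 for Acaca (2.90) and Srebf2 (5.89) and on day 1 for Scd2 (8.06).

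The difference between the labels changed from days 1 to 4 to days 5 to 8, by the interaction term in limma, for Acat2 (-0.62), Hmgcs1 (0.67), Cyp51 (-0.87), Me1 (-0.71) and Elovl5 (-0.95).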

How the results depend on the processing

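No called value reversed its direction in any alternative. On day 4 against day 0, members higher numbered 5, and 2 with a minimum fold change, 2 with only the 2 days compared, 8 without the X14 libraries of day 0 and 0 to 6 without a replicate, and members lower numbered 0, and 1 after 75th percentile scaling, without the X14 libraries of day 0 and with the length trend removed. On day 8 against day 0, members higher numbered 3, and 1 with a minimum fold change, after 75th percentile scaling and after quantile normalization, 0 with only the 2 days, 5 without the X14 libraries and 1 to 5 without a replicate, and members lower numbered 8, and 4 with a minimum fold change, 5 without a filter, 4 with only the 2 days and 3 to 8 without a replicate. On day 8 against day 4, members higher numbered 1 (0 with a minimum fold change) and members lower 8 (5 with a minimum fold change and 2 to 10 without a replicate). Between the labels, members higher numbered 3, and 1 with a minimum fold change, without a filter, in X14 alone and with day 0, and 1 to 2 without a replicate, and members lower numbered 16, and 1 with a minimum fold change, 9 in X14 alone, 4 in X18 alone and 3 to 11 without a replicate. In the label by stage comparison, members higher numbered 1, and 0 with a minimum fold change, in X14 alone and in X18 alone, and 0 to 1 without a replicate, and members lower numbered 4, and 0 with a minimum fold change and in X14 alone, 2 in X18 alone, 8 with the length trend removed, 7 without the library labelled X14 double on day 5 and 1 to 2 without a replicate. Apart from the calls lost with fewer libraries or a minimum fold, the cause was not tested.

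With the replicate block, pairing libraries by line and label, 6 members were higher and 0 lower on day 4 against day 0. The counts were 4 and 10 on day 8 against day 0, and 1 and 11 on day 8 against day 4. Between the labels the block was the line and day instead, pairing double with single, and gave 3 higher and 17 lower. These blocks gained the calls named in the report and lost none. Members with few reads, such as Idi1 with 2 to 45 reads a library, are limited by depth.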
